A study of Mus musculus with 2 samples.

Results

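The beta-defensins described here are the 5 genes *Defb1*, *Defb3*, *Defb4*, *Defb6* and *Defb14*, chosen by gene symbol. Each had 1 row, so that 5 of the 18498 rows of the expression table were members and no member lacked a row. The samples were 2 RNA-sequencing libraries of tongue from male C57BL/6J mice aged 12 to 30 weeks, for which the labels name no edited gene and no treatment. One library was made from the circumvallate papillae (CvP), the taste papillae at the back of the tongue, and the other from the tongue epithelium lacking papillae (Epi). RNA of at least 20 mice was pooled for each, with 1 library per tissue, so there were no replicates and no p-value was calculated. The table gives RPKM, a read density divided by gene length and by the mapped reads of the library, and a CvP/Epi ratio below 1 means a higher level in the Epi.

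Beta-defensins are small cationic peptides, held together by disulfide bridges, that epithelial cells secrete at the body's surfaces. They damage the membranes of bacteria and fungi and can attract immune cells, in part through the chemokine receptor Ccr6. *Defb1* is generally made without stimulation, whereas *Defb3*, *Defb4* and *Defb14* are known for induction by microbes and by cytokines such as interleukin-17, interleukin-22 and interleukin-1. *Defb14* is regarded as the mouse counterpart of human beta-defensin 3.

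The 5 genes lie on the plus strand of chromosome 8 of NCBI37/mm9, and each has 2 exons in the GENCODE M1 annotation, both with coding sequence. *Defb14* (chr8:19194328-19195309), *Defb4* (chr8:19198704-19201547), *Defb6* (chr8:19225478-19228209) and *Defb3* (chr8:19293361-19295339) form a cluster of 101 kb, in which 3394 bases separate *Defb14* from *Defb4*. *Defb1* (chr8:22887027-22905657) lies 3.59 Mb further along. Of the 42 annotated genes with a *Defb* symbol, 7 had a row. The 2 beyond the members were *Defb8* and *Defb12*, and the other 35 were not analysed here.

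The first 30 coding bases are shown because they display how near the members are to each other, which bears on how reads could be divided among them. Capitals mark bases that differ from *Defb3* at the same place, and each stretch lies in exon 1 of its gene on NCBI37/mm9.
Defb3 (chr8:19293373-19293402, plus strand): atgaggatccattaccttctgtttgcattt
Defb6 (chr8:19225505-19225534, plus strand): atgaAgatccattacctGctCtttgcCttt
Defb4 (chr8:19198733-19198762, plus strand): atgaggatccattaccttctCttCAcattt
Defb14 (chr8:19194357-19194386, plus strand): atgaggCtTcattaTctGctAtttgTattC
Defb1 (chr8:22887124-22887153, plus strand): atgaAAaCTcattacTttctCCtGgTGAtG
*Defb4* shared 27 of these 30 bases with *Defb3*, *Defb6* 26, *Defb14* 23 and *Defb1* 18. Over the whole coding sequence, identity was 76.0% between *Defb3* and *Defb4*, 78.6% between *Defb4* and *Defb6* and 71.9% between *Defb3* and *Defb6*. *Defb14* was 52.6% to 56.7% identical to these 3 genes, and *Defb1* 48.1% to 49.8% identical to the other 4. Stretches of 75 bases, the read length, were compared with the 22 chromosomes of the genome, the mitochondrial one included. Sequence not placed on a chromosome was not searched. Every stretch within an exon of *Defb1*, *Defb3*, *Defb6* and *Defb14* had a single place within 2 mismatches. For *Defb4*, 295 of 306 stretches had a single place and 11 also matched a place between the start and end of the *Defb8* row. Stretches across an exon junction or outside the annotated exons were not compared.

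The sequence just upstream separated the members in the same way. *Defb3*, *Defb4*, *Defb6* and also *Defb8* carried the same 30 bases ahead of the start of their rows, with the letters TATAA in capitals below.
Defb4 (chr8:19198672-19198701, plus strand): cactaTATAAggcactgagctcaagtccct
Defb6 (chr8:19225444-19225473, plus strand): cactaTATAAggcactgagctcaagtccct
Defb3 (chr8:19293312-19293341, plus strand): cactaTATAAggcactgagctcaagtccct
Defb8 (chr8:19447625-19447654, minus strand): cactaTATAAggcactgagctcaagtccct
TATAA began 27, 29, 44 and 43 bases before the start of *Defb4*, *Defb6*, *Defb3* and *Defb8*. These 30 bases occurred exactly 7 times on both strands of the 22 chromosomes searched, all on chromosome 8. Of these copies, 5 lay within 200 bases upstream of an annotated gene, namely those 4 genes and *Defb7*, which had no row. In the 60 bases before the start, *Defb14* held TATAA on the opposite strand alone and *Defb1* on neither strand. Among 32851 mouse promoters of RefSeq (GRCm38.p6), 5.57% held TATAA in that window on the gene's strand and 7.25% on either. The octamer ATTTGCAT, searched on both strands from 250 bases before to 50 after the start and not overlapping TATAA, was found at *Defb3* and *Defb6*, 181 and 168 bases before the start. It was not found at the other 3 members, and 1.74% of the RefSeq promoters held it. These matches describe letters and are not evidence of a bound factor.

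*Defb4* had the highest level in both tissues, and most of the members were higher in the Epi. *Defb3* and *Defb6* differed most, *Defb4* and *Defb1* differed less, and *Defb14* was higher in the CvP. The 5 members summed to an RPKM of 1134 in the CvP against 2616 in the Epi, at a ratio of 0.434 (95% interval 0.425 to 0.442, delta method). They made up 0.333% of all RPKM in the CvP against 0.636% in the Epi. *Defb4* held 87.4% of the members' sum in the CvP against 94.4% in the Epi. Without *Defb4* the sums were 143 and 147, a ratio of 0.973. These sums depend on the gene lengths that the deposited RPKM was divided by. Per annotated transcript length, the sums were 1723 and 3117 (ratio 0.553), the share of *Defb4* was 58.0% in the CvP against 79.9% in the Epi, and the ratio without *Defb4* was 1.16. In pooled tissue, fewer cells of a type and less RNA per cell cannot be told apart.

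*Defb4*, an inducible defensin of lung and mouth epithelium, reached an RPKM of 991 in the CvP against 2469 in the Epi. It was number 31 of all rows by RPKM in the CvP and number 18 in the Epi. The ratio was 0.401, which is 2.49-fold higher in the Epi, with a 95% exact (Clopper-Pearson) interval of the ratio from 0.393 to 0.410. This interval rests on about 12768 and 31288 reads, and this and the following intervals cover counting error only. High rows in general leaned towards the Epi. Of the 53 rows that reached 1000 RPKM in a library, 77.4% were higher in the Epi, and their median ratio was 0.527.

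*Defb3* reached an RPKM of 4.60 in the CvP against 29.9 in the Epi. It was thus 6.51-fold higher in the Epi, at a ratio of 0.154 (0.105 to 0.219) from about 36 and 230 reads by transcript length. By the gene length listed for its row, these were about 155 and 995 reads (interval 0.1285 to 0.1817). *Defb6*, a defensin described in skeletal muscle as well as in epithelia, reached an RPKM of 3.27 in the CvP against 17.2 in the Epi. Its level was 5.26-fold higher in the Epi, at a ratio of 0.190 (0.124 to 0.283) from about 30 and 155 reads by transcript length. By the listed length these were about 211 and 1091 reads (interval 0.1634 to 0.2207). By either length both genes had the fewest reads of the members in the CvP, and in proportion to the ratio their intervals were the widest. *Defb1* reached an RPKM of 27.02 in the CvP against 45.7 in the Epi, and was 1.69-fold higher in the Epi (ratio 0.592, interval 0.537 to 0.653).

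*Defb14* went the other way. It reached an RPKM of 108 in the CvP against 54.4 in the Epi, at a ratio of 1.99 (1.73 to 2.29) from about 627 and 310 reads by transcript length. By the listed length these were about 3774 and 1865 reads (interval 1.883 to 2.105). It is the direct neighbour of *Defb4*, and the balance between these 2 genes differed between the tissues. By deposited RPKM, *Defb4* exceeded *Defb14* by 9.15-fold in the CvP and by 45.4-fold in the Epi, and per annotated transcript length by 1.53-fold and 7.61-fold. The quotient of their ratios was 4.96 (95% exact conditional interval 4.31 to 5.71), a value that neither the scaling of the libraries nor the gene length alters. The 10 pairs of members were compared in this way, and *Defb3* and *Defb6* were the 1 pair whose interval included 1, at 1.24 (0.703 to 2.16). A difference between their ratios was therefore not detectable with the reads by transcript length. Intervals of the pairs were not calculated by the listed length. From *Defb3* to *Defb14* the ratios spanned a factor of 13.0 (8.79 to 19.4).

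**Figure D1:**
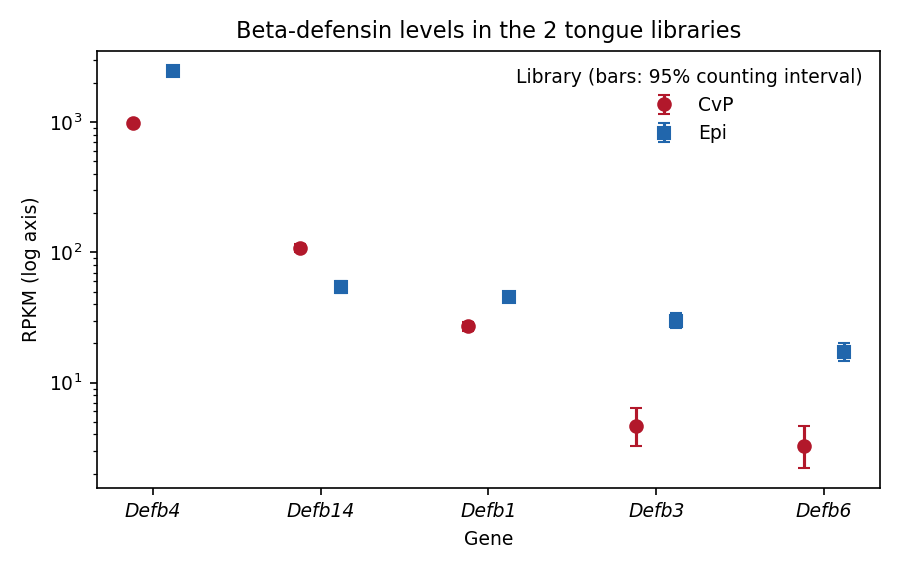
RPKM of the 5 beta-defensins (log axis) in the CvP library (red circles) and the Epi library (blue squares). Bars are the 95% counting interval from the reads by transcript length, which is smaller than the symbol for some genes. *Defb4* is the highest in both libraries, and *Defb14* is the 1 gene whose CvP value, 108, lies above its Epi value, 54.4.

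Against all rows, the members stood towards the Epi side. Of the 12549 rows that reached 1 RPKM in a library, 21.8% were higher in the Epi by any amount, against 4 of the 5 members. A difference of more than 3-fold towards the Epi, with an RPKM of at least 1 there, was seen in 1.96% of these rows and in 2 members, *Defb3* and *Defb6*. The same difference towards the CvP was seen in 15.9% of rows and in 0 members. By any amount, 78.1% of rows were higher in the CvP, as was the 1 member *Defb14*. Other limits gave like counts. At 2-fold, 3.75% of rows and 3 members passed towards the Epi, and 28.2% of rows and 0 members towards the CvP. At 5-fold these shares were 1.12% with 2 members and 10.3% with 0. With an RPKM above 10 in the higher library, 1.93% of rows and 2 members passed towards the Epi and 7.58% and 0 towards the CvP. *Defb3* and *Defb6* passed each time, and *Defb4* was added at 2-fold. Without a filter on low values, 4.58% of rows passed towards the Epi (2 members) and 25.4% towards the CvP (0). With 1 RPKM added to both libraries the shares were 1.2% (2) and 7.34% (0). With RPKM rescaled to a common sum they were 1.63% (2) and 24.5% (0). The median CvP/Epi ratio of the 10363 rows with an RPKM of at least 1 in both libraries was 1.31, a shift of 0.39 on the log2 scale towards the CvP, and that of the members was 0.401. Relative to this shift, the ratio of *Defb14* was 1.52. On the same basis *Defb4* had a ratio of 0.306 and also passed 3-fold towards the Epi, with 3.04% of rows and 3 members towards the Epi and 12.4% and 0 towards the CvP. Of the tested rows, 0.924% had a lower ratio than *Defb3*, 1.05% than *Defb6*, 2.57% than *Defb4*, 5.25% than *Defb1* and 71.5% than *Defb14*.

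**Figure D2:**
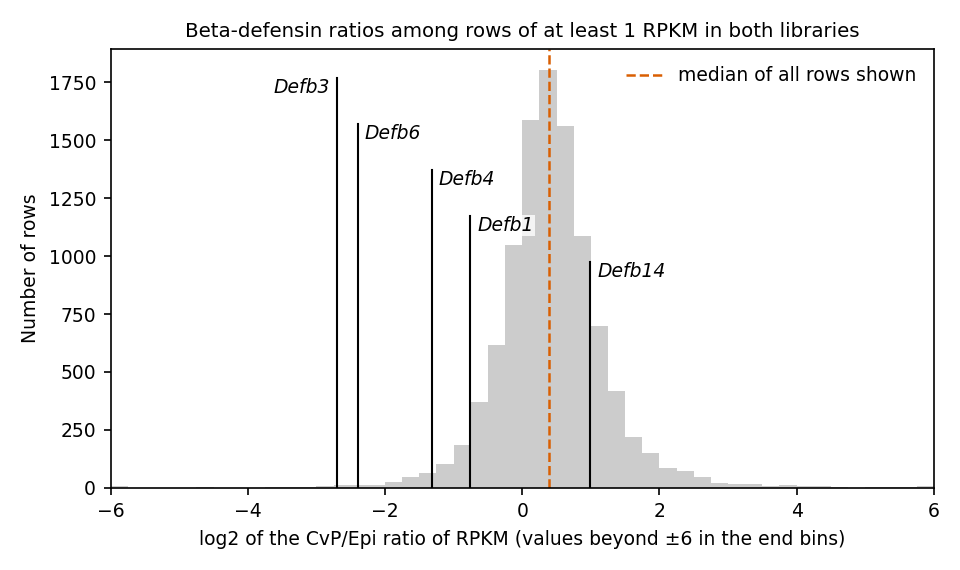
Number of rows (vertical axis) by log2 CvP/Epi ratio (horizontal axis, bins of 0.25) for the 10363 rows with an RPKM of at least 1 in both libraries, with a line for each beta-defensin, its height set for legibility alone. *Defb3*, *Defb6*, *Defb4* and *Defb1* lie left of 0, and *Defb14* lies at 0.99, right of the median of all rows at 0.39 (dashed).

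The order of the members by level depended on the length that reads were divided by. By deposited RPKM it was *Defb4*, *Defb14*, *Defb1*, *Defb3* and *Defb6* in both tissues. Intervals of these levels came from the reads by transcript length. For *Defb3*, *Defb6* and *Defb14* they are wider than the listed gene length would give. On that basis *Defb3* (3.23 to 6.39) and *Defb6* (2.21 to 4.67) overlapped in the CvP. *Defb14* (48.5 to 60.9) and *Defb1* (43.0 to 48.4) were barely apart in the Epi. By the listed length, the narrower intervals of *Defb14* and *Defb1* would lie further apart. Whether those of *Defb3* and *Defb6* in the CvP overlap by the listed length was not calculated. The listed gene length was close to the annotated transcript for *Defb4* (0.458 kb against 454 bases) and *Defb1* (0.916 kb against 872 bases). It was far longer for *Defb3* (1.19 kb against 275 bases), *Defb6* (2.27 kb against 323 bases) and *Defb14* (1.23 kb against 204 bases). The annotated transcript of *Defb14* holds coding sequence alone, with no UTR, so its 204 bases understate the mRNA. The listed length of *Defb14* exceeded even the 0.982 kb between the start and end of the row, so sequence outside that position entered its value. If all reads lay on the annotated transcript, the levels per transcript length would be as high as 652 in the CvP against 328 in the Epi for *Defb14*. They would be 19.9 and 130 for *Defb3* and 23.0 and 121 for *Defb6*. *Defb1* would then be last in the Epi, at 48.0, behind *Defb3* and *Defb6*. The length is the same in both tissues and cancels in each CvP/Epi ratio. Where the reads of *Defb3*, *Defb6* and *Defb14* lay is uncertain, however, and the part in their ratios of reads from outside the annotated exons was not tested.

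The other defensin rows of the cluster were higher in the Epi or absent. *Defb8* reached an RPKM of 0.86 in the CvP against 3.38 in the Epi, about 7 and 27 reads, and was 3.93-fold higher in the Epi (ratio 0.254, interval 0.0938 to 0.600). All 142 stretches within the exons of *Defb8* had a single place. The 11 stretches of the far more abundant *Defb4* that match the span of *Defb8* thus do not lie wholly within its exons there. Their part in this value was not tested. *Defa-ps12*, a pseudogene between *Defb4* and *Defb6* and the 1 row with an alpha-defensin symbol, had 14.3 and 44.6, a ratio of 0.320 (0.240 to 0.423). *Defb12* was at 0 in both libraries, which allows an RPKM of up to 0.0768 in the CvP against 0.0781 in the Epi at 3 reads. The 4 genes with the shared upstream 30 bases had ratios from 0.154 to 0.401, below those of *Defb1* and *Defb14*, although the interval of *Defb8* overlapped that of *Defb1*. *Defa-ps12*, with no copy of these bases next to it, lay within the same range. *Spag11b* and *Spag11a*, epididymal genes related to the defensins, lie on the other side of *Defb14*. *Spag11b* had 1.88 in the CvP against 1.31 in the Epi, at a ratio of 1.44 (1.03 to 1.997). *Spag11a* had 1.06 in the CvP and was at 0 in the Epi. By transcript length these were about 13 reads against 0, or at least 4.26-fold higher in the CvP at a floor of 3 reads. By its listed length the reads and this bound would be higher. The interval of *Spag11b* also came from transcript length and would be narrower by the listed length. The listed lengths of both, 8.90 and 6.95 kb, were longer than the 2.25 and 1.69 kb between their ends, so where their reads lay is uncertain. Near *Defb1*, *Atp7b* was the 1 other row within 200 kb, below an RPKM of 1 in both libraries.

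**Figure D3:**
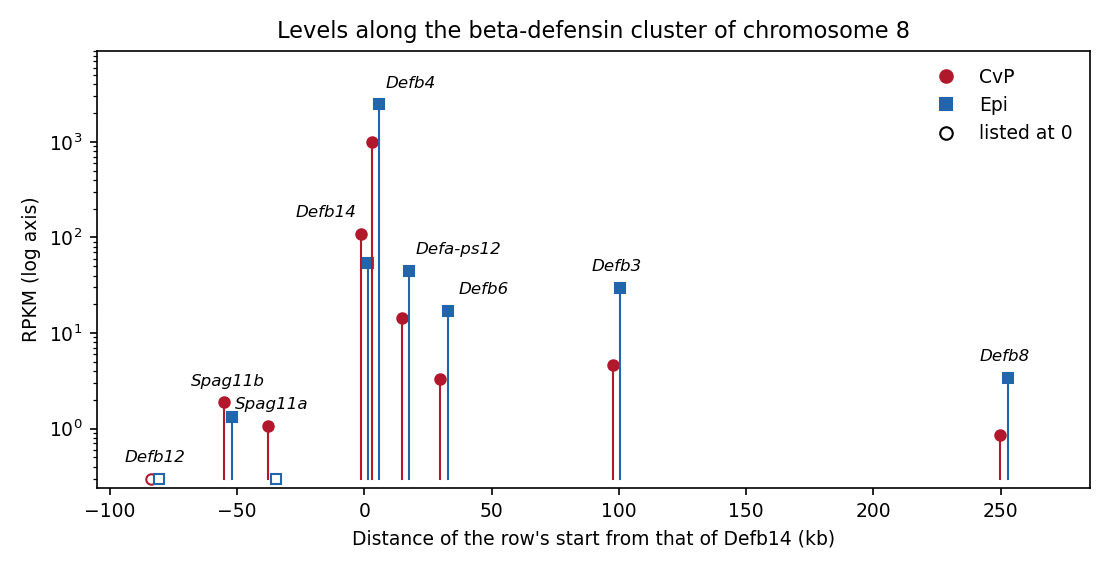
RPKM (log axis) of the rows of the beta-defensin cluster against the distance of each row's start from that of *Defb14* in kb, for the CvP (red circles) and the Epi (blue squares), with open symbols at the foot for values listed at 0 and stems that only lead to the axis. Left of *Defb4* the CvP value is the higher in *Defb14*, *Spag11a* and *Spag11b*, and from *Defb4* rightwards the Epi value is the higher in all 5 rows.

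Receptors named for beta-defensins were scarce in both libraries, apart from *Tlr4* and, in the CvP, *Tlr2*. Of 7 listed genes (6 receptors, and the chemokine *Ccl20* that shares Ccr6 with the defensins), 3 reached an RPKM of 1 in either tissue. *Ccr6* and the melanocortin receptor *Mc1r* were at or below 3 reads in both libraries. *Tlr2*, a receptor for bacterial lipoproteins, was at 3.21 in the CvP against 0.38 in the Epi, at a ratio of 8.45 (5.83 to 12.9). *Ccl20* was at 2.07 in the CvP and at 0 in the Epi, at least 15.4-fold higher at the floor of 3 reads. *Tlr4*, the receptor for lipopolysaccharide, was at 5.92 and 5.32, a ratio of 1.11. Its interval from the reads by transcript length, 0.997 to 1.25, included 1. The listed length of *Tlr4*, 8.44 kb, is longer and would give more reads and a narrower interval. Whether that interval includes 1 was not calculated. The median log2 ratio of the 3 genes, with 0.1 RPKM added to both libraries, was 2.79, against 0.50 over all tested rows. Without that addition, and with *Ccl20* at its bound, it was 3.08. *Tlr2* was the middle gene in both cases.

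The listed cytokines, most of them known to induce beta-defensins, included genes of either direction. Of 12 listed genes 11 had a row and 7 reached an RPKM of 1, and 3 of these were more than 3-fold higher in the CvP against 2 in the Epi. Of all tested rows, 15.9% passed 3-fold towards the CvP and 1.96% towards the Epi. All 4 members of the interleukin-36 subfamily were higher in the Epi, with ratios from 0.296 to 0.507. These were the agonists *Il1f6*, *Il1f8* and *Il1f9* and *Il1f5*, an antagonist and so not an inducer. *Il1f6* was at 80.4 in the CvP against 272 in the Epi, and *Il1f5* at 43.4 and 137. *Il1a*, *Il1b* and *Tnf*, classical inflammatory cytokines, were higher in the CvP. *Il1a* was at 70.6 in the CvP against 19.6 in the Epi (ratio 3.59, interval 3.36 to 3.85) and *Il1b* at 8.31 and 1.11 (ratio 7.49, interval 5.42 to 10.6). *Tnf* was at 2.70 and 0.05, the latter about 2 reads, a ratio of 54.0 (16.5 to 509). *Il17a*, *Il22* and *Ifng* had 3 or fewer reads in each library, and *Il17c* had about 6 in the CvP against 0 in the Epi. Without *Il1f5*, 3 of 6 genes were higher in each tissue, 3 past 3-fold in the CvP against 1 in the Epi. The median log2 ratio was -0.98 over the 7 genes and 0.43 without *Il1f5*, against 0.50 over all tested rows, so the sign of this median rested on 1 gene.

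Receptors and signalling genes on the inducing side were present in both tissues. All 25 listed genes reached an RPKM of at least 1 in at least 1 library. Of these, 3 were more than 3-fold higher in the CvP, 1 was more than 3-fold higher in the Epi and 21 were neither, beside 15.9% and 1.96% of all tested rows. The 3 were *Tlr3*, a sensor of double-stranded RNA (4.41 and 0.42), the interferon-gamma receptor chain *Ifngr1* (11.6 and 3.54) and the flagellin receptor *Tlr5* (2.20 and 0.71, ratio 3.10). The 1 in the Epi was *Il22ra1*, the specific chain of the interleukin-22 receptor, at 1.27 in the CvP against 4.89 in the Epi (ratio 0.260). By the larger of the values in both libraries, the highest of the list were *Tnfrsf1a*, a receptor of tumour necrosis factor (50.5 and 56.5), *Il17rc*, a chain of the interleukin-17 receptor (35.6 and 49.4), and the transcription factor *Stat3* (35.8 and 17.9). The median log2 ratio was 0.39, against 0.50 over all tested rows.

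Other antimicrobial products of epithelia were mixed in direction. Of 23 listed genes 20 had a row and 16 reached an RPKM of 1, of which 8 were more than 3-fold higher in the CvP against 1 in the Epi. By any amount, the CvP had the higher value in 10 of the 16 and the Epi in 6. The median log2 ratio was 1.55, against 0.50 over all tested rows, of which 15.9% passed 3-fold towards the CvP and 1.96% towards the Epi. The summed RPKM was nevertheless higher in the Epi (3540.1 in the CvP against 4671.5 in the Epi). The 8 were *Ltf* (lactoferrin, 1048 in the CvP against 28.5 in the Epi), *Lyz2* (lysozyme, 132 and 0.43), *Wfdc2* (145 and 26.4), *Cxcl14* (113 and 1.57), *Pglyrp1* (34.8 and 1.47), *S100a9* (31.4 and 3.45), *S100a8* (22.1 and 1.37) and *Lcn2* (8.51 and 0.05). *Lyz2*, *Pglyrp1*, *S100a9*, *S100a8* and *Lcn2* are also genes of myeloid cells. Summed macrophage markers (26.2 in the CvP against 6.18 in the Epi) and summed neutrophil markers (2.52 and 0.04) were higher in the CvP too. Most of the neutrophil sum was 1 gene, *Csf3r* (2.20 and 0.01), the 1 marker of that list to reach an RPKM of 1. Salivary gland markers were divided. *Pigr* (12.0 and 0.54) and *Aqp5* (6.09 and 0.69) were higher in the CvP, and *Muc19* was nearly equal (1.32 and 1.31). *Lipf* (1.96 and 313), *Amy1* (0.85 and 80.5) and *Dcpp1* (0 and 7.84) were higher in the Epi. The part of these cells in the antimicrobial values was not tested. The 1 towards the Epi was *Wfdc12*, a small whey acidic protein with antibacterial activity, at 110 in the CvP against 490 in the Epi. *Slpi*, the secretory leukocyte protease inhibitor, was the highest of the list, at 1735 in the CvP against 3889 in the Epi. Its ratio of 0.446 was close to that of *Defb4*. *Camp*, the cathelicidin, had about 2 reads in the CvP against 0 in the Epi.

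**Figure D4:**
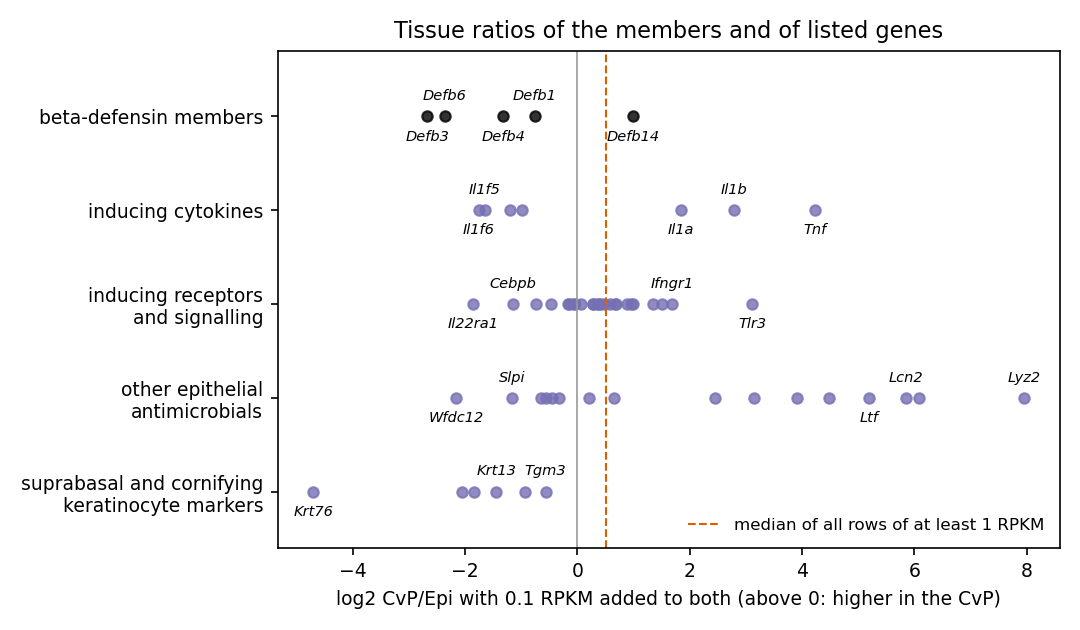
Log2 CvP/Epi ratio, with 0.1 RPKM added to both libraries (horizontal axis), of the beta-defensins and of 4 gene lists, 1 point per gene that reached 1 RPKM in a library, with some genes named. Of the beta-defensins, *Defb14* alone lies right of 0, while the inducing cytokines lie on both sides and the 6 suprabasal and cornifying keratinocyte markers lie left of 0.

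The labelled tissues were checked by marker genes. Counts past 3-fold stand beside 15.9% of all tested rows towards the CvP and 1.96% towards the Epi. All 8 taste cell markers were more than 3-fold higher in the CvP, with summed RPKM of 375 there and 5.12 in the Epi, and *Pkd2l1* and *Kcnq1* were at 0 in the Epi. Markers of suprabasal and cornifying keratinocytes had the direction of 4 of the 5 beta-defensins, *Defb14* being the exception. All 6 with a row were lower in the CvP, at ratios from 0.0384 (*Krt76*) to 0.675 (*Tgm3*), with sums of 33039.5 in the CvP against 86949.8 in the Epi. Of the 4 basal keratinocyte markers, 2 were lower in the CvP, *Krt14* (295 and 1140) and *Krt15* (497 and 783.5), and 2 were higher there, *Krt5* (1506 and 1271) and *Trp63* (62.3 and 33.6), and the sums were 2359.6 and 3227.9. Skeletal muscle markers were low, and 4 of 4 were more than 3-fold higher in the Epi (sums 2.52 and 38.5). Macrophage markers were higher in the CvP (3 of 5 past 3-fold, sums 26.2 and 6.18). Of 6 neutrophil markers 4 had a row, with sums of 2.52 and 0.04, and *Elane* was at 0 in both. Only 1 of the 4, *Csf3r* (2.20 in the CvP against 0.01 in the Epi), reached an RPKM of 1. Salivary gland markers were divided, with 2 past 3-fold in the CvP against 3 in the Epi, where *Lipf* and *Amy1* held most of the sum of 404 against 22.2, and *Dcpp1* was at 0 in the CvP. The part of these cells in the beta-defensin ratios was not tested.

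The rows most like each member were those at the smallest distance in log2 RPKM over the 2 libraries, among 15861 rows above 0 in both. They were *Fabp5* (1075 and 2533) and *Crct1* (1032 and 2112) for *Defb4*, at distances of 0.12 and 0.23. *Serpinb1a* (112 and 56.0) and *Crip1* (105 and 56.3) were nearest to *Defb14*, at 0.06 and 0.07. For *Defb1* they were *Dusp22* and *Kctd5*, at 0.05 and 0.08. The neighbours of *Defb3* were *Krtap3-3* and *Tmem229b* (0.28 and 0.35), and those of *Defb6* were *Pstpip1* and *9930013L23Rik* (0.26 and 0.27).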

How the data were processed

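Single-end reads of poly(A) RNA were aligned by the authors with Bowtie 0.12.7 (per the submitters' processing notes) to NCBI37/mm9, and the deposited RPKM values were obtained by them with ERANGE. How reads with several places were treated is not given in the sources used here. The libraries held about 28375721 (CvP) and 27914604 (Epi) mapped reads, estimated from the RPKM that 1 read was worth in the 163 rows of 0.1 kb. With the listed lengths, all 8 low values of rows longer than their transcript were whole reads (within 0.15), and with transcript lengths 43 of 89 were. Each gene's reads were computed with its listed length or its longest GENCODE M1 coding transcript, whichever was shorter. This lowers the read counts and widens the intervals where the listed length is the longer. A column with the authors' own CvP/Epi ratio was not used.

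A row was called at an RPKM of at least 1 in the higher library and a ratio beyond 3, the fold used in the study, with no pseudocount. The members and lists were chosen with earlier results of these data known. Genes named were the members, other *Defb* rows of at least 1 RPKM, neighbours of at least 1 RPKM within 200 kb, the 2 nearest rows of each member, and in each list those past the fold or highest, with the marker lists given mainly by their sums. *Il1f8*, *Camp*, *Ccr6*, *Mc1r*, *Il17a*, *Il17c*, *Il22*, *Ifng*, *Elane*, *Tgm3*, *Trp63*, *Muc19*, *Defb7*, *Defb12* and *Atp7b* fall outside this rule and were chosen after their values were seen. On data simulated with counting error alone and reads by the listed length, 94.9% of 1000 intervals held the true CvP/Epi ratio. Intervals from reads by a shorter transcript length were not checked in this way. Python 3.11.15, numpy 2.4.6, pandas 2.3.3, scipy 1.17.1 and matplotlib 3.10.9 were used.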

Additional observations from a re-analysis of the deposited data

How the results depend on the processing

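No paired analysis was possible because no result came from a test, with 1 pooled library for each tissue. Every member kept its direction under each alternative. Divided by the median ratio of all rows, the CvP/Epi ratio was 0.451 for *Defb1*, 0.306 for *Defb4*, 1.52 for *Defb14* and 0.330 for the summed RPKM. With RPKM rescaled to a sum of 1000000 per library, these ratios were 0.714, 0.484, 2.40 and 0.523. Both changes follow from the scaling, which multiplies all ratios alike. Pseudocounts of 0.1 and 1 left each ratio within its counting interval by transcript length, as did both scalings for *Defb3* and *Defb6*. By the listed length the intervals were narrower, 0.1285 to 0.1817 for *Defb3* and 0.1634 to 0.2207 for *Defb6*. Both scalings then lay outside for *Defb3* (0.117 and 0.1853) and *Defb6* (0.1448 and 0.2293). For *Defb6* a pseudocount of 1 did so too (0.2346). The members past the fold in the Epi were 2 or 3 and those in the CvP 0 under each setting, the third being *Defb4* with a fold of 2 or after division by the median ratio. Levels per transcript length, added after the values were seen, gave a summed ratio of 0.553. Leaving the antagonist *Il1f5* out of the cytokine list, also added afterwards, turned its median log2 ratio from -0.98 to 0.43. Choosing among several rows of a member was not run, since each had 1. *Defb3* and *Defb6* rested on the fewest reads in the CvP, 36 and 30 by transcript length or 155 and 211 by the listed length.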
